A study of Mus musculus with 9 samples.

Results

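The 500 longest H3K4me1 regions of primary oviductal muscle cells are described here, with the genes they lie in, their place in those genes and the H3K27ac peaks that cover them. The cells came from WT mice aged 8 to 12 weeks on D2 of pregnancy after mating with a stud male, and 50000 cells went into a library. Chromatin was profiled by ChIC-seq, in which an antibody brings protein A-MNase to a histone mark, the enzyme cuts nearby, and the released fragments are sequenced. Each of H3K27ac, H3K4me1 and control IgG had 3 of the 9 samples, with no treatment or genotype contrast, and nothing in the labels said whether replicates came from separate animals, so the spread between lists may be technical. Regions were taken from the pooled H3K4me1 peak list on chromosomes 1 to 19. Of its 105720 peaks, 103829 lay on these chromosomes and 45286 also overlapped a peak in each of the 3 H3K4me1 replicate lists. The 500 longest of those 45286 replicated peaks spanned 10.2 Mb. Length and replicate overlap chose the regions, so every H3K4me1 value below is a description.

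H3K4me1, monomethylation of lysine 4 of histone H3, marks enhancers and the flanks of promoters, where it gives way to trimethylation at the start of active genes. It is deposited mainly by the MLL3 and MLL4 methyltransferases. H3K27ac, acetylation of lysine 27, is found at active enhancers and active promoters, so that H3K4me1 with H3K27ac is commonly read as an active enhancer and H3K4me1 alone as a primed one. A broad peak joins neighbouring enriched stretches, and a long one can hold several separate elements. The muscle of the oviduct contracts to move the embryos towards the uterus in early pregnancy.

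The replicate calls used 40551842 to 78891920 fragments of the marks against 3110985 to 3713369 of IgG, and H3K27ac replicate 2 shared its IgG library with H3K4me1 replicates 1 and 2, as did H3K27ac replicate 3 with H3K4me1 replicate 3. The labelled cell type was checked by peaks at promoters, the windows within 1 kb of a protein-coding start site. Among 6 smooth muscle markers, Acta2 and Des had a promoter peak in all 6 replicate lists. Tagln had one in 2 H3K27ac and 3 H3K4me1 lists, Cnn1 and Mylk in 1 and 2, and Myh11, the smooth muscle myosin heavy chain, in 0 and 1. Of 5 fibroblast markers 4 were marked in all 6 lists, namely Col1a1, Col3a1, Dcn and Lum, and Pdgfra in 3 and 2. No marker of epithelium (5 genes), blood (4) or endothelium (4) was marked in all 6 lists, but some were marked in several. The epithelial keratin gene Krt8 had a peak in 1 H3K27ac and 3 H3K4me1 lists, more lists than Cnn1, Mylk or Myh11, and Ovgp1 and the endothelial receptor gene Kdr had one in 1 and 2. Ptprc, the pan-leukocyte marker, had one in all 3 H3K27ac lists and no H3K4me1 list, and the other 3 blood markers had none. Of these 24 genes, only Col3a1 and Dcn carried one of the 500 regions, and the part of other cell types in the results was not tested.

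Sequence is shown for 7 of the 8 longest regions in which peaks of all 6 replicate lists covered at least 300 bp together, so that the reader can see what lies at the point where both marks recurred. Each line gives the 300 bases at the centre of the longest such stretch, on the plus strand of GRCm38, read from the RefSeq assembly. Capitals mark a match on either strand to the AP-1 motif (TGANTCA), the TEAD motif (CATTCC) or the GATA motif (AGATAA). The window in the rank 5 region of Mbnl1 lay in a first intron, those in Map4k4, Cwc22, Jmjd1c, Bcl2l1 and the rank 4 region of Mbnl1 lay in other intronic sequence, and that at Lncpint lay outside annotated protein-coding and long noncoding genes. None touched an annotated exon of a protein-coding gene.
Map4k4 region, rank 1, chr1:39960938-39961237: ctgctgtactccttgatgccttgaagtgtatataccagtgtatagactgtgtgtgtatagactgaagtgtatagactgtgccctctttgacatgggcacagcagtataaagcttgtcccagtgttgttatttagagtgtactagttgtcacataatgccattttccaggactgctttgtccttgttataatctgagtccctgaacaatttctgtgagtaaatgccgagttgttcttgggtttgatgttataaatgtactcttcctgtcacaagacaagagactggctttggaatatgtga
Lncpint locus region, rank 3, chr6:31077515-31077814: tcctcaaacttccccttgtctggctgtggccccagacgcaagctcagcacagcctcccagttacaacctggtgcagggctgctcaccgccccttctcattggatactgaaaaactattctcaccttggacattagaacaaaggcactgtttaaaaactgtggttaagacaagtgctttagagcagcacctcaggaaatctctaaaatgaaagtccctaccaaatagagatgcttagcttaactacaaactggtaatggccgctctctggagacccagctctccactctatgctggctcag
Mbnl1 region, rank 4, chr3:60602488-60602787: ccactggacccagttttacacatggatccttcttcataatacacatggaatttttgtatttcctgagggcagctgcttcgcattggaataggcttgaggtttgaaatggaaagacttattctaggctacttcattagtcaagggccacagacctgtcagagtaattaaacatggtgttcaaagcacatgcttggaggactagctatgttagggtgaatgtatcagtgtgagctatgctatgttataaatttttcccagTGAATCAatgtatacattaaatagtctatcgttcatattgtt
Mbnl1 region, rank 5, chr3:60520788-60521087: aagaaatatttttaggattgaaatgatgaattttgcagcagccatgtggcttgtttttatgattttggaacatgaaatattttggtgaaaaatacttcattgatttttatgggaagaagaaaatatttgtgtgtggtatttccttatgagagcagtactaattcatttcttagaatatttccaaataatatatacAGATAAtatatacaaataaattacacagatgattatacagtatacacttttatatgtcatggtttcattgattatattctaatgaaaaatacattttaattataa
Cwc22 region, rank 6, chr2:77910228-77910527: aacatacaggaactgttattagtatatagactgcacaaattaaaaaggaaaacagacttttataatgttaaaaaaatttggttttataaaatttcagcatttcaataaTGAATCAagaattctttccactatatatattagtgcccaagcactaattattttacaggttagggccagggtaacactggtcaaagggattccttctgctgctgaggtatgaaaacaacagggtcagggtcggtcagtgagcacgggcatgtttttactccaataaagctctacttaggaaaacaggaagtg
Jmjd1c region, rank 7, chr10:67183275-67183574: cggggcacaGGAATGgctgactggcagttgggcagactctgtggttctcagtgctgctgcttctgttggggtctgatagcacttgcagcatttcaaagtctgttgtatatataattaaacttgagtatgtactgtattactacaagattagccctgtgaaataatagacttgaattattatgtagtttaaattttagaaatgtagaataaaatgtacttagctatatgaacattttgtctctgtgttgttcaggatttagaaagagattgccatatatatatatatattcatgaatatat
Bcl2l1 region, rank 8, chr2:152809636-152809935: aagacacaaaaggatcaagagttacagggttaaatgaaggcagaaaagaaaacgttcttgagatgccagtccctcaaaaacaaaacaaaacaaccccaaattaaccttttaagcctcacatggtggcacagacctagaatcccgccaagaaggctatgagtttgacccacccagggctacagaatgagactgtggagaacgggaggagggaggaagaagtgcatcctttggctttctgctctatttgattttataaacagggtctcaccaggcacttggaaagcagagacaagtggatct

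One motif match was present in each of the windows of both Mbnl1 regions, Cwc22 and Jmjd1c, and no match in those of Map4k4, Lncpint and Bcl2l1. Over all members, 425 of the 500 regions held such a stretch, as did 8450 of the 44786 other replicated peaks, and its median length was 1655 bp against 713 bp. A longer region holds such a stretch more easily, and the rule itself used the H3K4me1 lists. By bp, all 6 lists together covered 18.8% of the members, 14.3% of the next 500 by length and 8.46% of the others. The longest stretch was that of 11953 bp in Cwc22. Besides the motifs above, the palindromic hormone response element of steroid receptors, the palindromic NFI motif and the CArG box bound by serum response factor were searched on both strands. The GATA motif occurred in 90 of 425 member windows (21.2%), beside 19.9% of the 8875 windows of all replicated peaks. The TEAD motif occurred in 68 (16.0%, beside 16.3%), the AP-1 motif in 53 (12.5%, beside 13.4%) and the CArG box in 8 (1.88%, beside 1.95%). Neither the hormone response element nor the NFI motif was found in a member window, and all replicated windows held them in 0.0113% and 0.0225%. The shares in members thus lay near those of all windows for each motif, and a match is a string of letters, not evidence of binding.

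The 500 regions ran from 14312 to 63939 bp, with a median of 17954.5 bp and quartiles of 15.7 and 21.9 kb. Only 44 exceeded 30 kb and 6 exceeded 50 kb. The longest lay in Map4k4, a kinase that acts on cell migration, and began 1730 bp downstream of the gene's start (chr1:39902643-39966581). It took up 51.0% of the gene. The next lay in Susd6 (62302 bp), followed by a region of 62053 bp at the noncoding RNA gene Lncpint that touched no protein-coding gene. Ranks 4 and 5, of 53543 and 53242 bp, both lay in Mbnl1, a regulator of alternative splicing, and were separated by only 4677 bp. Rank 6 lay over the start of Cwc22, a spliceosome-associated factor, and covered 76.5% of that gene. Ranks 7 to 12 lay in Jmjd1c, Bcl2l1, Zbtb20, Cdh11, Rtn4 and Ppp2r2a, with lengths from 48054 down to 44015 bp. At the threshold, the last 3 regions inside lay in N4bp2l2 (14323 bp), Mrtfa (14321 bp) and Tmem30a (14312 bp), and the first 3 outside in Myh10 (14290 bp), Kat6b (14281 bp) and Rybp (14231 bp).

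H3K27ac cover, the percentage of a region's bp inside the peaks of an H3K27ac list, differed widely among the longest regions. The Map4k4 region was covered to 20.2, 19.9 and 14.5% in replicates 1, 2 and 3. The Cwc22 region was covered to 96.5, 90.8 and 95.0%. Among the 12 longest, Map4k4 was the lowest and Cwc22 the highest in all 3 lists. The Susd6 region had 62.7, 52.9 and 35.1%, and the Lncpint region 63.8, 80.2 and 71.8%. The rank 4 region of Mbnl1 had 62.6, 87.1 and 50.9% and the rank 5 region 83.0, 63.7 and 85.7%, so the lists did not order this pair alike. The Bcl2l1 region, at the gene of an anti-apoptotic BCL-2 protein, gave 57.1, 60.2 and 56.8%, the narrowest range among the 12. The Cdh11 region, at the gene of a mesenchymal cadherin, gave 41.5, 40.0 and 21.4%.

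**Figure D1:**
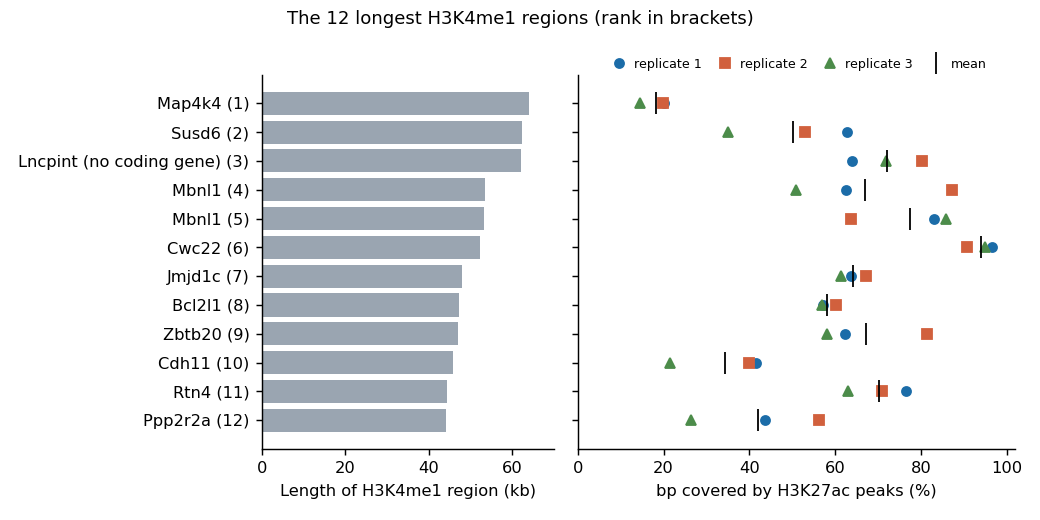
Length in kb (bars, left) and the percentage of bp covered by H3K27ac peaks in each of the 3 replicate lists (points, right; black tick, mean) for the 12 longest H3K4me1 regions, named by gene. Map4k4 sits between 14.5 and 20.2% and Cwc22 between 90.8 and 96.5%.

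Nearly all of the regions were genic. A protein-coding gene body was met by 481 of 500 (96.2%), beside 64.6% of all replicated peaks, but a longer region meets a gene more easily, so bp were compared too. Of the members' bp, 94.0% lay in protein-coding genes, 90.1% in introns and 3.95% in exons. The next 500 by length gave 91.2, 86.5 and 4.76%, and all 44786 other replicated peaks gave 69.1, 63.8 and 5.37%. First introns alone held 54.7% of the members' bp, against 51.0% in the next 500 and 30.9% in the others. These shares come from 1 pooled list and have no replicate error. The host genes had a median length of 82.3 kb, and a region covered a median of 21.7% of its gene. The midpoint fell in the first 50% of the gene's length for 385 of the 481 regions in a gene (80.04%), against 75.5% of those in the next 500 and 63.2% of those in the others.

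Many of the regions began close to the start of their gene. The annotated gene start lay inside 43 regions (8.6%, near the 8.4% of the next 500 and against 5.38% of the others), and 147 regions (29.4%) began 1 to 2000 bp downstream of it. The latter class held 23.4% of the next 500 and 7.48% of the others. A further 53 regions began 2 to 10 kb into the gene (10.6%, as in the next 500, against 6.40% of the others) and 135 began 10 to 50 kb in (27%, against 25.8% of the next 500 and 18.04% of the others). The 103 that began over 50 kb in (20.6%) were a smaller share than in the next 500 (25.8%) and the others (26.98%), as were the 19 that met no protein-coding gene (3.8% against 6 and 35.7%). A region inside several gene models was placed by the longer one. Of the 29 members that met several models, 9 changed class when the shorter was used, and 195 in place of 190 then held the start or began within 2 kb of it, an alternative added after the values were seen. Any promoter window, alternative starts included, was met by 241 regions (48.2%), beside 17.9% of all replicated peaks, and here too a longer region meets a window more easily. By bp the order was the other way, with 3.93% of the members' bp in promoter windows, 5.03% in the next 500 and 7.57% in the others. This order too depends on length, since a window can take up only a smaller share of a longer region. Of the 291 regions that began more than 2 kb into a gene, 88 met the promoter window of an internal start or of another gene. With a window of 250 bp in place of 1 kb, the count of regions that met a promoter was 151.

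Both marks were then read in 500 bp steps around the gene start of the 190 regions that held it or began within 2 kb of it. H3K27ac peaks covered 89.7, 89.5 and 85.3% of the first 500 bp downstream of the start in replicates 1, 2 and 3. Cover was highest at 1 to 1.5 kb, at 94.5% ± 2.00 (SD, n = 3 lists), and declined to 54.1% ± 3.02 at 5 kb and 29.9% ± 3.75 at 20 kb. The last steps lay past the end of many regions, and H3K4me1 cover was itself 49.0% ± 5.10 at 20 kb. H3K4me1 had the opposite shape near the start. Its cover was 20.8% ± 3.80 in the first 500 bp, 85.8% ± 4.03 at 2.5 to 3 kb and 80.8% ± 3.11 at 5 kb, with 46.3% ± 1.02 on the upstream side at 0.5 to 1 kb. The H3K4me1 shape follows in part from the choice of regions that began just downstream. H3K27ac was also read at the starts of the 5758 other replicated peaks of these 2 position classes. It was 75.8% ± 2.38 in the first 500 bp, 12.4 ± 1.74 points below members, and 63.0% ± 3.48 at 1 to 1.5 kb, 31.5 ± 3.09 points below. At 10 to 10.5 kb the others had 10.8% ± 1.55 and members 46.2% ± 1.62. The 190 members had a median length of 18384.5 bp and the 5758 others one of 3172.5 bp. The part of region length in these gaps was not tested, and they are given with no test.

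**Figure D2:**
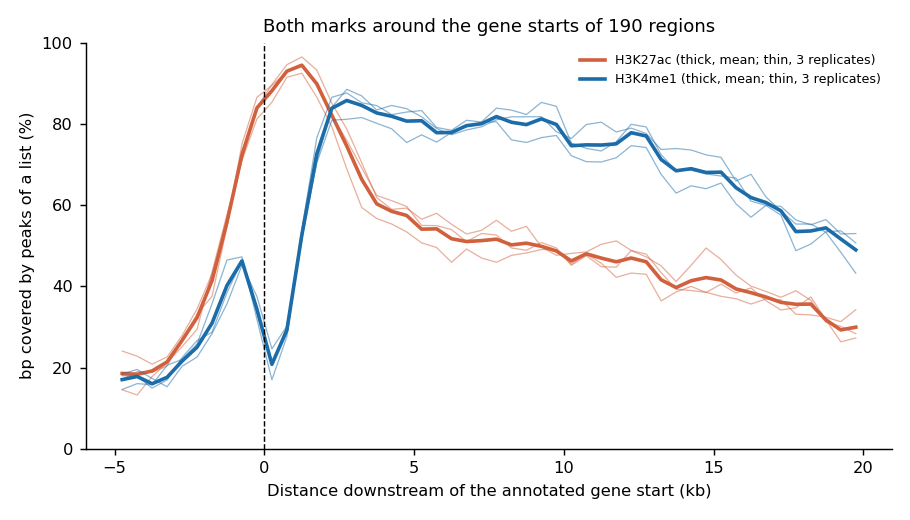
Percentage of bp covered by peaks of each mark against distance in kb from the annotated gene start, in 500 bp steps over 190 regions (thick lines, mean of 3 replicate lists; thin lines, each list). H3K27ac peaks at 94.5% between 1 and 1.5 kb downstream, where H3K4me1 is rising from a local dip of 20.8% at the start.

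Over all bp of the 500 regions, H3K27ac peaks covered 51.4, 50.6 and 44.9% in replicates 1, 2 and 3, and the mean was 49.0% ± 3.52 (SD, n = 3 lists). The next 500 regions by length were covered to 47.9, 44.8 and 40.3%. In each list the longest 500 were above the next 500, by 4.64 ± 1.15 points on average (higher in 3 of 3 lists, exact two-sided permutation p = 0.25, the smallest p that 3 lists allow; adjusted p over 4 tests 0.25). The difference fell to 2.29 points when each region had to be at least 50% covered in every H3K4me1 replicate, and to 2.71 points when 250 regions were set against the next 250. All other replicated peaks were covered to 38.7, 38.2 and 32.8%. Here the longest 500 were higher by 12.4 ± 0.300 points (3 of 3 lists, exact permutation p = 0.25), or by 6.23 points with the 50% requirement. Since all these values missed 0.05 by design, the differences are stated by their size and spread alone.

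**Figure D3:**
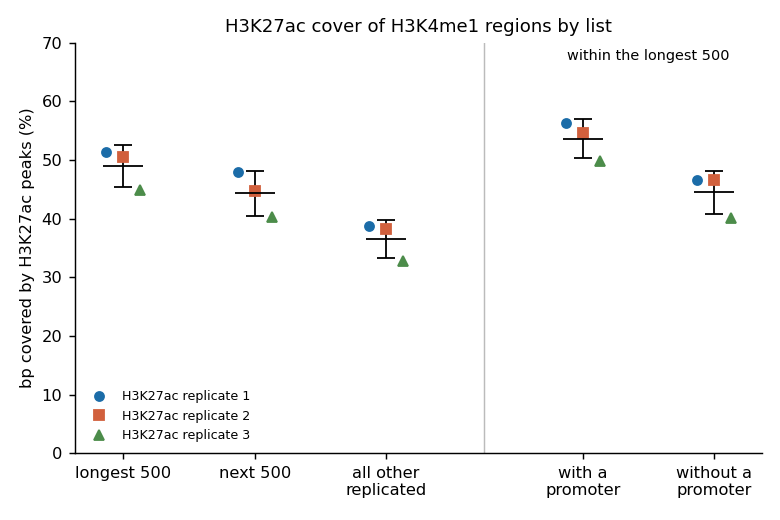
Percentage of bp covered by H3K27ac peaks in each of the 3 replicate lists (points), with mean and SD (bars), for the longest 500 H3K4me1 regions, the next 500, all other replicated peaks, and members with and without a promoter. Cover falls from a mean of 49.0% through 44.3% to 36.6%, and replicate 3 is the lowest list in every set.

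In the pooled H3K27ac list the cover of single regions ran from 0 to 100%. At least 50% of the bp were covered in 352 regions (70.4%), beside 39.0% of all replicated peaks and 64.2% of the next 500. At least 80% were covered in 144 (28.8%, against 24.4% of the next 500 and 19.7% of the others). All bp were covered in 12, for which no share of the other peaks was taken. Cover was less than 20% in 16 regions (3.2%), beside 41.9% of all replicated peaks and 10.8% of the next 500, and a shorter peak more easily has no cover at all. The pooled list was a separate call on all fragments, and its agreement with the single lists was partial. At least 50% cover in each of the 3 replicate lists was reached by 132 regions (26.4%), beside 11.0% of all replicated peaks and 19.2% of the next 500. Cover stayed below 50% in each list for 160 (32%), beside 45.0% and 36.6%. A peak of every H3K27ac replicate was met by 494 regions (98.8%), beside 43.9% of all replicated peaks and 95.8% of the next 500, and a longer region meets a peak more easily. By bp, 23.5% of the members were covered in all 3 H3K27ac lists, 18.8% in all 6 lists of both marks, and 24.0% in no H3K27ac list. The same shares were 19.3, 14.3 and 28.5% for the next 500 and 13.8, 8.46 and 37.1% for all other replicated peaks.

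**Figure D4:**
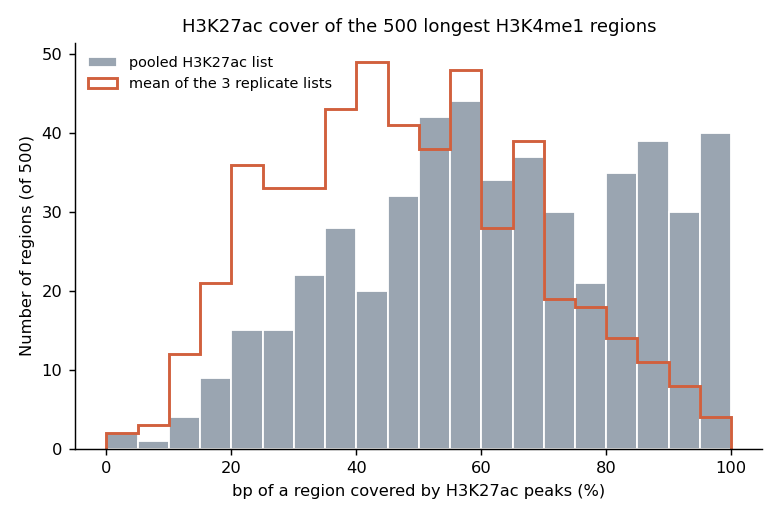
Number of the 500 regions by the percentage of their bp covered by H3K27ac peaks in 5-point steps, for the pooled list (filled) and for the mean of the 3 replicate lists (outline). The pooled list puts 144 regions at 80% or more and 16 below 20%.

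Of the 12 regions with pooled cover of 100%, the 5 longest lay at Cwc22, at the noncoding gene 2310001H17Rik, in Vmp1, in Akap13 and in Rad51b. The Vmp1 region, in the gene of a membrane protein of autophagy, had 91.7, 93.5 and 94.0% in the replicates, and the Rad51b region 74.4, 84.4 and 53.4%. At the other end, a region in Med13l, which encodes a subunit of the Mediator kinase module, was not touched by any pooled H3K27ac peak and was covered to 0, 4.13 and 5.61% in the replicates. Its H3K4me1 cover was 57.4, 58.6 and 61.1%. Irf2 (2.203% pooled), Rybp (8.78%), Usp3 (11.6%) and Ggta1 (12.2%) followed. In Ggta1 the replicates gave 1.55, 7.60 and 11.8%. The replicates were further apart in Irf2, with 5.07, 27.8 and 7.12%, so its place near the bottom rests on the pooled list. Over the 500 regions, H3K27ac cover in 1 list correlated with that in another at r = 0.652 to 0.692, while regions share libraries and depth. Cover had a correlation near 0 with length (r = 0.0791 to 0.0951) and with H3K4me1 pileup (r = -0.00712 to 0.0370), and a negative one with GC content (r = -0.312 to -0.380). GC content of the members was 41.8%, against 42.5% in the next 500 and 43.2% in the others.

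Among the members, H3K27ac cover was higher where a region met a promoter. Regions with a promoter window were covered to 56.3, 54.7 and 49.9% and those without to 46.7, 46.6 and 40.2%. The difference was 9.16 ± 0.937 points, in the same direction in 3 of 3 lists (exact two-sided permutation p = 0.25). It was 7.25 points when the promoter windows themselves were left out of the bp, an alternative added after the values were seen. Regions that held the gene start had 63.8% ± 2.89, those that began within 2 kb had 50.0% ± 2.83, those 2 to 10 kb in 46.5% ± 4.48, those 10 to 50 kb in 42.0% ± 3.82 and those over 50 kb in 48.4% ± 3.70, so cover did not fall steadily with distance. The 19 regions outside protein-coding genes had 69.9, 68.3 and 58.6%. Of these, 14 were covered to at least 80% in the pooled list. They comprised 15 at annotated long noncoding RNA genes, among them Lncpint, Pvt1 and 2 regions at Lncppara, and 4 with no such gene. At Lncppara the regions were covered to 94.3, 96.2 and 93.7% and to 81.5, 91.9 and 83.3%, and at Pvt1, beside Myc, to 59.7, 44.6 and 45.2%.

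**Figure D5:**
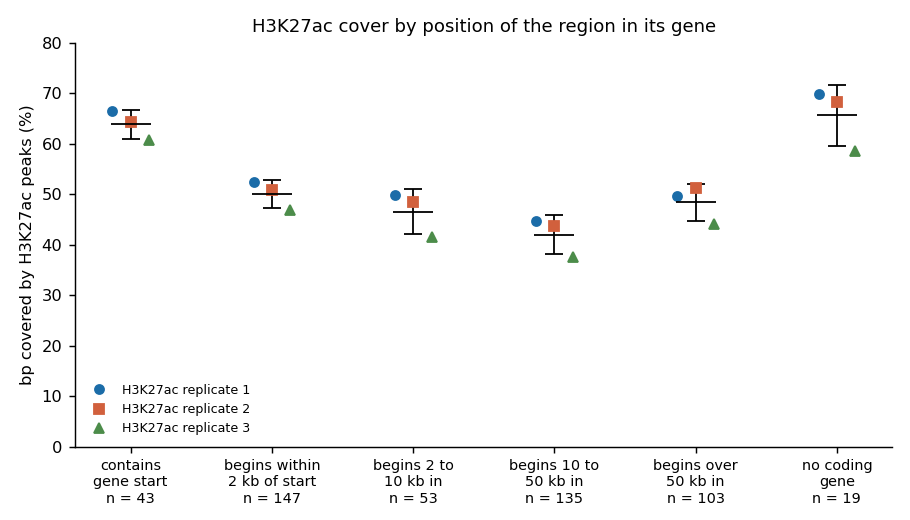
Percentage of bp covered by H3K27ac peaks in each replicate list (points), with mean and SD (bars), for the 500 regions grouped by where they began relative to the annotated start of their gene. The means run from 42.0% in regions that began 10 to 50 kb in to 63.8% in regions that held the start and 65.6% outside coding genes.

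Pileup is the fragment coverage averaged over a peak and scaled to the IgG depth. In the pooled H3K4me1 list it ran from 4.11 to 10.97 with a median of 5.77, where the mean over the genome was 0.693. Fold enrichment over the local background was 1.92 to 4.03, with a median of 2.28. Cwc22 had the highest pileup (10.97), ahead of Zmynd8 (10.09), Sept9 (9.14), Mcl1 (8.86) and Capzb (8.82). The lowest were Rbm39 (4.11), Trps1 (4.20), Ext1 (4.21) and Mast4 (4.23). Cwc22 lies in a segment whose copy number is known to vary among mouse strains. Inside it the pileup was 1.95, 2.53 and 2.30 times the mean of all H3K4me1 peaks in replicates 1, 2 and 3, and 2.38, 2.13 and 1.86 times that of all H3K27ac peaks, so both marks were raised there together, and the part of copy number was not tested.

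H3K27ac peaks inside the 500 regions had a mean pileup, weighted by length, of 2.32, 2.03 and 2.02 in the 3 lists, against 1.80, 1.84 and 1.82 over all H3K27ac peaks. The log2 ratio was 0.37, 0.15 and 0.15, a mean of 0.222 ± 0.127 (3 of 3 lists, exact two-sided permutation p = 0.25). H3K27ac peaks inside the other replicated H3K4me1 peaks gave log2 ratios of 0.26, 0.07 and 0.08. The direction turned when H3K27ac peaks under 1.3 in −log10 p were dropped, where the mean log2 ratio was -0.0866, and the pooled list gave 0.00208. A direction for the height of the peaks inside the members is therefore not given.

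The 500 regions met the body or promoter of 443 of 20807 protein-coding genes (2.13%). Long genes were met most often, with 6.71% of genes of at least 50 kb and 0.762% of shorter ones, and the median length was 79.0 kb for genes with a region against 17.6 kb for all. More than 1 region was found at 59 genes and at least 3 at 13. Akap13, which encodes an A-kinase anchoring protein, had 6 regions that together spanned 116 kb and 38.9% of the gene. They were covered by H3K27ac to 54.4, 67.6 and 56.1%. Zbtb20, Tcf4, Tcf12 and Fndc3b had 4 regions each. Tcf4 and Tcf12 encode E proteins, the partners of tissue-specific basic helix-loop-helix factors, and their regions had H3K27ac cover of 53.4% ± 9.17 and 58.8% ± 8.10 (SD, n = 3 lists). The 4 regions of Zbtb20 had 65.6% ± 6.62, and those of Fndc3b 31.3% ± 7.19.

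Cdh11, Ankrd11, Capzb, Dyrk1a, Pik3r1 and Pdzrn3 had 3 regions each, and Gm20388, a gene model of 4435 kb that runs across Ankrd11, had the same 3 as Ankrd11. The regions filled 65.7% of Capzb, the gene of the beta subunit of actin capping protein, and 62.2% of Pik3r1, the regulatory subunit of PI3-kinase. Among these genes the H3K27ac cover ranged from 17.4% ± 7.37 at Ankrd11, a chromatin regulator, to 48.0% ± 7.57 at Cdh11. Pik3r1 had 21.1, 21.2 and 23.9%, so most bp of its regions lay outside H3K27ac peaks in each replicate list. The pooled list covered them to 46.7%, with single regions from 31.3 to 68.2%. Over all 500 regions there were 72 pairs within 50 kb of each other, 63 of these in the same gene, and 35 pairs within 10 kb. Some gaps were short, such as 642 bp between regions of Capzb. Pairs were not counted among the other replicated peaks, so these numbers have no reference.

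Gene lists were then read for their members with a region, beside the 2.13% of all coding genes. Of 16 genes of cell-matrix adhesion, 7 had one (median gene length of the list 75.8 kb). The Itgb1 region, at the integrin beta 1 gene, began within 2 kb of the start, covered 44.7% of the gene and had H3K27ac cover of 81.2, 79.2 and 80.2%. The region in Itgav, an integrin alpha chain, had 48.0, 53.0 and 60.2%. That in Vcl, the gene of vinculin, had 92.9, 59.0 and 46.8%, and that in Actn4, which encodes an actin crosslinker, had 74.6, 71.7 and 80.05%. Itgb1 and Actn4 were close in all lists, whereas Vcl was high in replicate 1. Cav1, Lpp and Actn1 were the others.

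Of 16 extracellular matrix genes, 6 had a region (median 56.2 kb). The 2 regions of Col5a2 had 79.1, 66.4 and 70.9% and the 2 of Col4a1, a basement membrane collagen, had 27.2, 24.8 and 24.5%. These collagens did not overlap in any list. The Col3a1 region held the gene start and was covered to 93.1, 86.7 and 87.2%, and that of Col1a2, an alpha chain of type I collagen, to 66.3, 39.5 and 73.0%. Fbn1, the gene of fibrillin-1, and Dcn, the gene of the proteoglycan decorin, were the other members. Of 15 contractile genes, 2 had a region (13.3%, median 23.1 kb). These were Synpo2, an actin-bundling protein of muscle, with 30.7, 42.0 and 18.2%, and Cald1, the gene of caldesmon, with 56.4, 66.3 and 68.9%.

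Signalling genes were led by the TGF-beta and BMP list, with 5 of 16 (median 69.2 kb). The region in Ski, a repressor of SMAD activity, was the longest of these at 35.4 kb, filled 51.6% of the gene and had H3K27ac cover of only 12.1, 10.7 and 13.6%. The type II receptor gene Tgfbr2 had 26.5, 39.7 and 18.8%, the co-receptor gene Tgfbr3 had 21.9, 47.0 and 19.3% over 2 regions, and the BMP receptor gene Bmpr1a had 61.7, 42.1 and 34.1%. Smad7, which encodes an inhibitory SMAD, was the remaining one. Ski was the lowest of the 5 in all 3 lists. Growth factor receptor genes gave 3 of 16 (median 124 kb), namely Egfr, Ddr2 and Fgfr2. The Fgfr2 hit rests on a gene model of 2961 kb, of which the region covers 0.490%, and the region lies wholly inside another, shorter gene. The Egfr region was the 13th longest at 43.3 kb and had 56.0, 51.9 and 56.95%. The region in Ddr2, a collagen receptor, had 65.1, 49.5 and 50.2%.

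Mesenchymal transcription factor genes gave 5 of 16 (median 101 kb). The 2 regions of Zeb2, a repressor of epithelial genes, had 55.7, 47.0 and 57.4%, and the region of Prrx1, a homeobox factor of limb and body wall mesenchyme, had 86.8, 87.8 and 83.6%. Zeb1 had 37.9, 27.7 and 23.7%, and Foxp1 also had a region. Prrx1 was the highest of these 4 genes in every replicate. Steroid receptor and cofactor genes gave 4 of 14 (median 114 kb). The Esr1 region, in the gene of estrogen receptor alpha, was 25.6 kb long, began over 50 kb into the gene and had H3K27ac cover of 70.2, 59.5 and 71.0%. Nrip1, a corepressor gene, had 23.5, 51.0 and 20.1% over 2 regions. The coactivator gene Ncoa1 had 59.3, 45.1 and 21.3%, and Nr3c1, the glucocorticoid receptor gene, had 49.4, 36.9 and 49.8%.

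Among 16 genes of the YAP and SRF pathways (median 70.7 kb), 1 had a region (6.25%), namely Mrtfa, a coactivator of serum response factor, with H3K27ac cover of 49.7, 14.3 and 60.0%. No region was found at 16 AP-1 genes (median 6.38 kb), 20 prostaglandin genes (24.2 kb), 16 epithelial genes (7.82 kb), 16 blood and endothelial genes (38.1 kb) or 16 liver and neuron genes (14.0 kb). The lists differ in gene length, and its part in these counts was not tested.

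MicroRNA genes lay in 11 regions, 14 genes in all, of which 5 had a mature sequence in the RefSeq set on GRCm38.p6. No share was taken over all replicated peaks, so the count has no reference and is not read as a trait of the regions. The region of rank 30 (chr16:77597072-77631880) held Mir99a and Mirlet7c-1, which are made from the host transcript Mir99ahg. These mature sequences are shown, chosen after the values were seen, because 2 widely expressed microRNA genes shared this region. Capitals mark the seed, bases 2 to 8.
mmu-miR-99a-5p: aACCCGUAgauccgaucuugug
mmu-miR-99a-3p: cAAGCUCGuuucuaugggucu
mmu-let-7c-5p: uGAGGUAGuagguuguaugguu
mmu-let-7c-1-3p: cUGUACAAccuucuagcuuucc

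Mir99a-5p lay at chr16:77598940-77598961 and let-7c-5p at chr16:77599672-77599693, both on the plus strand, and they differ in their seeds. This 34.8 kb region was covered by H3K27ac to 67.4, 65.3 and 47.6% and had an H3K4me1 pileup of 4.5, towards the low end of the members. The peak lists give no level for the microRNAs themselves.

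H3K4me1 in the replicate lists is given last, as the rule used it. The regions were covered by H3K4me1 peaks to 72.3, 77.3 and 75.9% in replicates 1, 2 and 3. A region met a median of 4 peaks in each replicate list, and 3 regions were a single peak in all 3. At least 50% cover in every replicate was reached by 428 regions and at least 80% by 86. In replicates 1, 2 and 3 taken singly, 92.8, 96 and 93.2% of members reached 50%. The next 500 gave 81.6, 87.2 and 87.4%, and the others 64.9, 73.4 and 68.0%. For 80% cover the shares were nearer, with 31.4, 45 and 42.6% of members. They were 27.4, 41.6 and 35.8% in the next 500 and 32.3, 43.0 and 36.5% in the others. Long regions of the pooled list were thus mostly runs of shorter replicate peaks. None of the 500 longest pooled peaks on these chromosomes was lost to the replicate requirement, and the first that would have been ranked 1600.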

How the data were processed

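The labels named cutadapt, Bowtie2, MACS2 and GRCm38.p5, and trimming and alignment settings for these samples were not given in the sources used here. Per the file headers, the authors called broad peaks with MACS 2.2.7.1 on paired fragments against IgG, at p-value cutoffs of 0.05 for strong and 0.1 for weak regions, and pooled lists were called on all 3 replicates together. The deposited pileup is a coverage signal scaled to the IgG depth. As deposited, fold enrichment is a ratio, pileup against local background with 1 added to both. Significance is deposited as −log10 of the p-value. A further deposited column, named as −log10 of the q-value, was treated as a score and not reported, since the headers say q was not calculated. Pileup was compared within a list only.

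Peaks were ranked by the deposited length on chromosomes 1 to 19. Cover was the union of a list's peaks, with an overlap of at least 1 bp for a hit. Gene models were GENCODE mouse release 21, with sequence from the RefSeq GRCm38 assembly. Each of 4 differences was tested by an exact two-sided permutation test of sign changes over the 3 H3K27ac lists. Interval code was tested on simulated data, where 0 of 800 results differed from counts base by base. Python 3.11.15, numpy 2.4.6, pandas 2.3.3 and scipy 1.17.1 were used.

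Named singly were the 12 longest regions, genes with at least 3, up to 4 genes with values per list, the 5 highest and 5 lowest by pooled H3K27ac cover and by pileup, and 3 on either side of the threshold. Some genes and 1 sequence that met this rule are not reported here. The members, lists and tests were chosen with earlier results of these data known. Alternatives tried were a p-value filter, other rules and numbers of regions, other promoter windows, the median over regions and leaving out each list.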

Additional observations from a re-analysis of the deposited data

How the results depend on the processing

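All cover differences kept their direction under every alternative run. The pileup ratio did not: it was -0.0866 with H3K27ac peaks of −log10 p of at least 1.3. The count of regions with a promoter was 151 with a 250 bp window, and the count covered by pooled H3K27ac was 144 at 80% in place of 50%. Leaving out 1 H3K27ac list gave 4.06 to 5.21 points against the next 500, 12.3 to 12.6 against all others, 8.88 to 9.70 for promoters and 0.149 to 0.260 for the log2 pileup ratio. Without a replicate requirement the difference from all others was 17.5 points, and the 500 members were the same. Of the 500, 428 were still members with 50% cover in each replicate and 334 when ranked by bp in all 3. The tests already paired the sets of regions within each H3K27ac list. Between the marks, no paired analysis was possible because the rule used H3K4me1. With 3 lists no p could fall below 0.25. The IgG libraries were much shallower than those of the marks, and the part of IgG depth in the calls was not tested.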

Other observations

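On chromosome X, left out by the rule, 4 of 962 replicated H3K4me1 peaks (0.416%) reached 14312 bp, against 1.10% on the autosomes. Of these, 3 lay in Kdm6a, Tbl1x and Msn. The longest 500 replicated H3K27ac peaks of the autosomes ran from 10047 to 61975 bp. They were met by 157 of the 500 H3K4me1 regions (31.4%), and 167 of them (33.4%) met an H3K4me1 region. Long regions meet each other more easily, and no such share was taken for the other H3K4me1 peaks, so these counts have no reference. The regions were spread over all 19 autosomes, from 5 on chromosome 19 to 44 on chromosome 9, which was 0.381 to 1.76% of the replicated peaks there. CpG dinucleotides in the regions occurred at 0.204 of the number expected from base composition, and 22.4% of bp were masked as repeats.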
